A study of Homo sapiens with 6 samples.

Results

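Transcripts of 9 genes that make, cleave or bind hyaluronan were followed by RNA sequencing in RKO, a line of human colorectal carcinoma cells. The genes were HAS2, HAS3, HYAL2, HYAL3, CEMIP, CEMIP2, CD44, HMMR and UGDH, found by their symbols in the GENCODE annotation. They are 9 of the 58735 rows of the table, and all 9 had enough counts to be among the 13503 genes tested. RKO cells treated with EZA were compared with RKO cells given DMSO, the solvent, with 3 replicates in each group. EZA is an abbreviation that the labels leave unexplained, and they state neither its dose nor how long it was applied. The study calls the replicates biological but does not say whether they came from separate cultures, so errors and p-values cover the spread among these 6 samples. The 9 genes were chosen by their place in hyaluronan biology and with their counts in all 6 libraries in view, so their EZA and DMSO values are given as a description and without a test.

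Hyaluronan is a long, unbranched sugar polymer of alternating glucuronic acid and N-acetylglucosamine. It is built at the plasma membrane by HAS enzymes from UDP-activated sugars and pushed straight out of the cell, unlike other glycosaminoglycans, which are made in the Golgi on a protein core. Outside the cell it is cut by hyaluronidases and by the CEMIP proteins, and cells sense it through receptors, of which CD44 is the main one in epithelial cells and their tumours.

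Libraries held 14070611 to 18840954 counts in EZA and 15343614 to 15778418 in DMSO. EZA replicate 3 stood apart, with 0.203% of its counts in mitochondrial genes against 3.68% to 5.02% in the other 5 libraries, so values that rest on it are given with and without it. Of 11 colon epithelial markers 4 were tested (KRT8, KRT18, CDX2 and EPCAM), and their summed level was 167 to 196 CPM in EZA and 163 to 183 CPM in DMSO. CPM are counts relative to library size after TMM scaling. The epithelial markers CDH1, CDX1 and MUC2 had 0 counts in all 6 libraries, where a count of 0 allows up to 3 counts, or 0.166 to 0.212 CPM, in a library. KRT19, KRT20, VIL1 and LGALS4 had at most 1 count in a library, so markers of differentiated colon epithelium were absent or nearly so. None of 7 fibroblast, 6 leukocyte and 5 endothelial markers had enough counts to be tested.

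Promoter sequences were taken from RefSeq (GRCh38.p14), where 8 of the 9 genes matched by symbol, HYAL3 with 2 entries. HAS2 had no entry, so its promoter was not searched. Each sequence runs from 250 bases before the start site to 50 after it. The HAS3 promoter is shown because HAS3 was one of the genes that were lower in EZA. The HMMR promoter is shown because 6 of the 12 partners of HMMR tested were called lower, against 7.82% of all genes tested. That list was chosen with earlier results of these data known, and the values of HMMR itself overlapped between the groups. Matches in the promoters of the partners are not given. Capitals mark the E-box CACGTG in HAS3 (chr16:69107290-69107589, plus strand), and in HMMR (chr5:163460382-163460681, plus strand) the CCAAT box on either strand and TTTGAA, the cell cycle homology region (CHR) found in promoters of genes of mitosis.
HAS3: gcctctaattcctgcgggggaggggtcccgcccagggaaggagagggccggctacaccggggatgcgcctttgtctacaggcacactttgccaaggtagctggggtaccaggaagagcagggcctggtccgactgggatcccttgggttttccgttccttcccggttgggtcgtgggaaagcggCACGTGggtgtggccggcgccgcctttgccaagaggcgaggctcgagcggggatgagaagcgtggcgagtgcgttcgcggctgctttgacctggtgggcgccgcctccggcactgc
HMMR: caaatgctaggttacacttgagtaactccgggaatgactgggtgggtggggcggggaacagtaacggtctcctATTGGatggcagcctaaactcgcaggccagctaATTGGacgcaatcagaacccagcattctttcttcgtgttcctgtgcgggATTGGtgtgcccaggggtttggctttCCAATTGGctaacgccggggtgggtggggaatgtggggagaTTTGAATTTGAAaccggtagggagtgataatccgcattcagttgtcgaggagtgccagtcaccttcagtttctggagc

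The E-box of HAS3 began 66 bases before the start site and was the only one among the 9 entries; 7.26% of the 35116 RefSeq promoters and 9.5% of those of tested genes hold that motif. HMMR had 2 adjoining TTTGAA matches, beginning 28 and 22 bases before the start site, and none of the other entries had one; 15.2% of all promoters and 10.3% of those of tested genes do. HMMR also had 5 matches to CCAAT, of which 2 overlap in the letters CCAATTGG, and 34.6% of all promoters and 34.8% of those of tested genes hold at least 1. In total 7 motifs were searched on both strands. The GC box GGGCGG was found in 7 of the 8 genes, all but HYAL2, in 45% of all promoters and in 67.2% of the 14353 promoters of tested genes. The ATF4 composite element, searched as TGATGNAA, was in none of the entries, in 3.62% of all promoters and in 1.96% of those of tested genes. The antioxidant response element TGACNNNGC was in 1, that of CD44, in 13.3% of all promoters and in 14.7% of those of tested genes. TATAAA was in 1, that of CEMIP, in 11.5% and in 5.85%. These are matches of letters in a fixed window.

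Among the hyaluronan genes, the replicate values of HAS2 and HAS3 did not overlap between the groups, while those of the other 7 genes did. In the edgeR quasi-likelihood fit over all genes, 2 of the 9 had an adjusted p below 0.05, and both were lower in EZA. Over all tested genes 17.7% were called in either direction, 9.89% higher and 7.82% lower. Scaling by library size alone gave 1059 higher and 1270 lower calls, against 1336 and 1056 with TMM. The groups did not overlap in the same 2 genes, HAS2 and HAS3, against 42.7% of all genes tested. The study itself required an absolute log2 fold change of 1 or more and a p below 0.05 before adjustment. Of the 9 only HAS2 met this, lower in EZA, as did 5.73% of all genes in either direction and 1.96% in the lower one. The median log2 fold change, EZA over DMSO, was -0.27 over the 9 and -0.01 over all genes tested. Without DMSO replicate 1, 2 or 3 or EZA replicate 2, 1 of the 9 was called. Over 15 alternatives in processing, HAS2 was called in 15 and HAS3 in 10. Since the choice of the genes used this comparison, nothing is read from these counts.

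**Figure D1:**
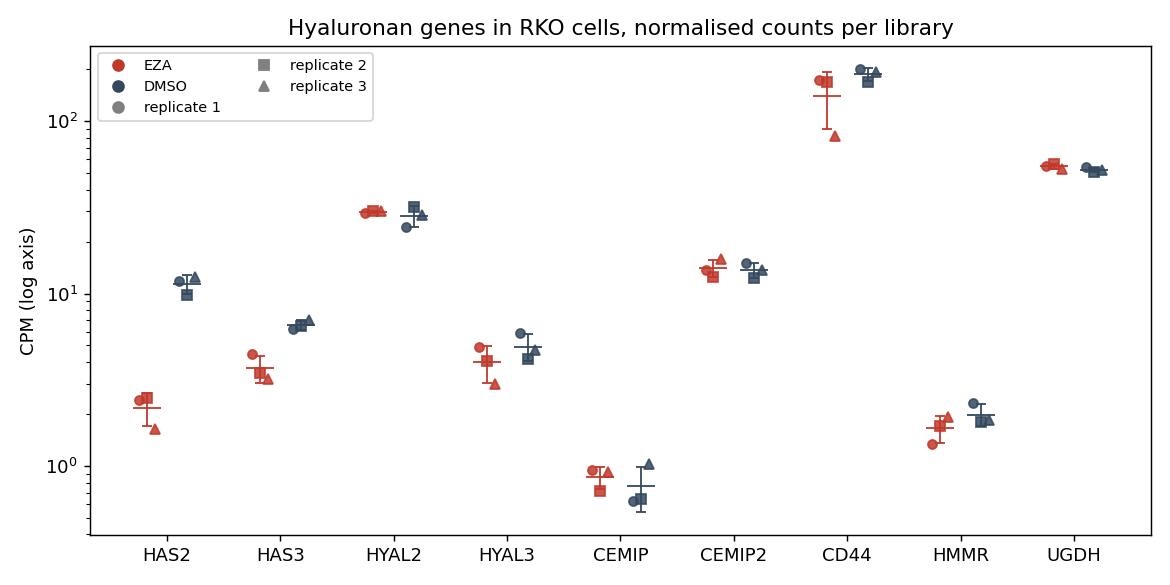
Normalised counts (CPM, logarithmic axis) of the 9 hyaluronan genes, with EZA in red left of DMSO in dark blue, a symbol per replicate, a bar for the mean and whiskers for 1 SD (n = 3 each). HAS2 lies between 1.63 and 2.48 CPM in EZA and between 9.83 and 12.5 CPM in DMSO, and CD44 has 1 low EZA library at 81.8 CPM.

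HAS2 encodes the hyaluronan synthase that makes very long chains and is often the most regulated of the family. It lies on chromosome 8. It had 38, 45 and 23 counts in EZA replicates 1 to 3, and 189, 154 and 196 counts in DMSO replicates 1 to 3. After scaling these were 2.41, 2.48 and 1.63 CPM in EZA and 11.8, 9.83 and 12.5 CPM in DMSO. All 3 EZA libraries were far below the lowest DMSO library. The mean was 2.17 ± 0.476 CPM in EZA and 11.4 ± 1.40 CPM in DMSO (SD, n = 3 each), 5.24-fold lower in EZA. The fitted log2 fold change was -2.38 ± 0.22 (SE), and 3 of the 13503 genes tested had a lower one. In bulk RNA, fewer cells with a transcript and less of it per cell cannot be told apart. Without EZA replicate 3 the value was -2.21, and it was -2.02 after removal of the trend with GC content and transcript length. The HAS2 transcript has a GC content of 37.2%. HAS2-AS1, the antisense gene that shares 251 exon bases with HAS2, had 1 count in all libraries together.

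HAS3, a synthase known for shorter chains, was lower to a smaller degree. HAS3 (ENSG00000103044, chromosome 16, 69105653 to 69118719, GRCh38) had 70, 63 and 45 counts in EZA replicates 1 to 3 and 99, 102 and 110 counts in DMSO replicates 1 to 3. These were 4.44, 3.48 and 3.18 CPM in EZA, against 6.19, 6.51 and 7.03 CPM in DMSO. The groups did not overlap, although EZA replicate 1 was nearer to the DMSO libraries than the others were. The mean was 3.70 ± 0.660 CPM in EZA and 6.58 ± 0.423 CPM in DMSO (SD, n = 3 each), and the fitted difference on the log2 scale was -0.83 ± 0.20 (SE). With any 1 library left out the value lay between -0.98 and -0.73. HAS3 shares 365 exon bases with CHTF8 on the other strand, which had 9070 counts in all and differed by -0.07 ± 0.21 on the log2 scale (SE; edgeR adjusted p = 0.851). The libraries do not mark strand.

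Levels of different genes can be set side by side in the deposited FPKM, which divide by gene length. HAS2 and HAS3 together had 1.40, 1.25 and 0.970 FPKM in EZA replicates 1 to 3 and 3.92, 3.53 and 4.21 FPKM in DMSO replicates 1 to 3. The sum was 1.21 ± 0.217 FPKM in EZA and 3.89 ± 0.343 FPKM in DMSO (SD, n = 3 each), 3.22-fold lower in EZA. The balance of the synthases also differed. The ratio of HAS2 to HAS3 was 0.685, 0.902 and 0.645 in EZA and 2.41, 1.91 and 2.25 in DMSO. HAS2 thus had the higher level in each DMSO library. HAS3 was nominally higher in each EZA library, but at few counts, and the FPKM ranges of the synthases overlapped there. Their order in EZA is therefore not separated. HAS1, the remaining synthase of the family, had 0 counts in every library.

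**Figure D2:**
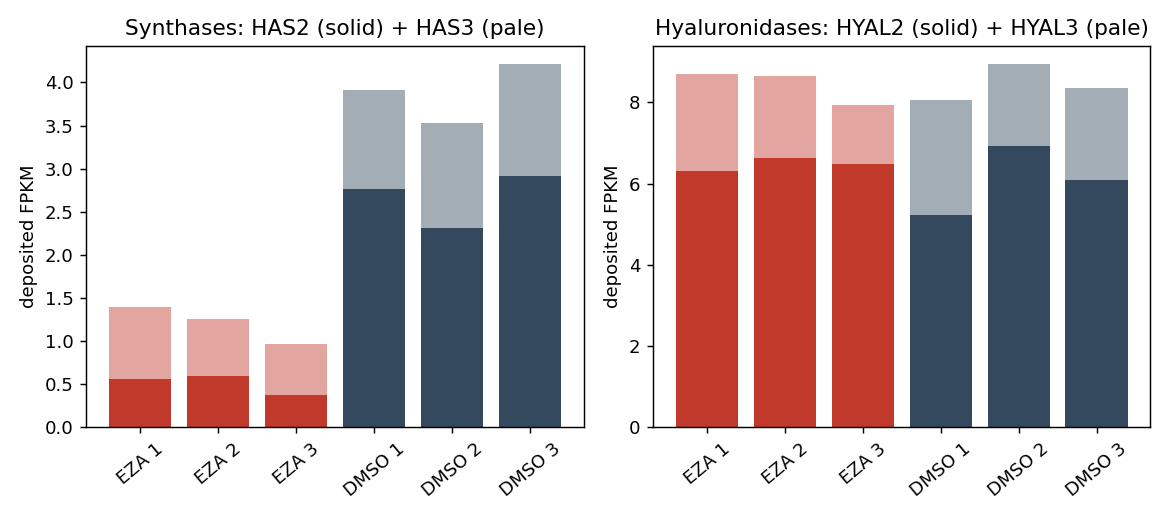
Bars give the deposited FPKM of each library, EZA in red left of DMSO in dark blue, with HAS2 or HYAL2 solid and HAS3 or HYAL3 pale on top. The summed synthases reach 0.970 to 1.40 FPKM in EZA and 3.53 to 4.21 FPKM in DMSO, while the summed hyaluronidases lie between 7.93 and 8.94 FPKM in all 6 libraries.

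UGDH, which oxidises UDP-glucose to UDP-glucuronic acid and so supplies a precursor of hyaluronan, was nearly level. UGDH (ENSG00000109814, chromosome 4, 39498755 to 39528311) had 55.2, 56.3 and 52.9 CPM in EZA replicates 1 to 3 and 53.9, 50.6 and 52.0 CPM in DMSO replicates 1 to 3. EZA replicates 1 and 2 were above every DMSO library and EZA replicate 3 lay inside their range. The log2 fold change was 0.07 ± 0.12 (SE). It was 0.34 after removal of the GC and length trend and 0.35 when EZA replicate 3 was also left out. The GC content of its transcript is 39.5%. UGDH-AS1 shares 513 exon bases with UGDH and had 79 counts in the 6 libraries together.

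The hyaluronidases were led by HYAL2, a membrane-anchored enzyme that cuts long chains to intermediate fragments. HYAL2 (ENSG00000068001, chromosome 3, 50317790 to 50322782) had 29.1, 30.0 and 30.1 CPM in EZA replicates 1 to 3 and 24.2, 31.9 and 28.4 CPM in DMSO replicates 1 to 3. The EZA values lay within the DMSO range, and the log2 fold change was 0.08 ± 0.14 (SE). After removal of the GC and length trend it was -0.26, the opposite sign, and without EZA replicate 3 as well it was also -0.26. The GC content of the transcript is 60.1%, and 509 of its exon bases are shared with TUSC2 on the same strand. TUSC2 had 58.9 ± 4.97 CPM in EZA and 46.2 ± 2.88 CPM in DMSO (SD, n = 3 each; edgeR adjusted p = 0.0867).

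HYAL3, a hyaluronidase family member of weak or debated activity, lies beside HYAL1 and HYAL2. HYAL3 (ENSG00000186792, chromosome 3, 50292831 to 50299405) had 4.89, 4.09 and 2.97 CPM in EZA replicates 1 to 3 and 5.88, 4.15 and 4.73 CPM in DMSO replicates 1 to 3. EZA replicate 3 was the lowest library, and the other EZA values were close to the DMSO values. The log2 fold change was -0.30 ± 0.24 (SE), and -0.14 without EZA replicate 3. After removal of the GC and length trend it was -0.67, and the GC content of the transcript is 60.6%. HYAL3 shares 232 exon bases with NAA80 and 43 with IFRD2 on the same strand, so its counts are uncertain. IFRD2 had 283 ± 99.2 CPM in EZA and 174 ± 16.3 CPM in DMSO (SD, n = 3 each; edgeR adjusted p = 0.0610), and NAA80 differed by 0.17 ± 0.36 on the log2 scale (SE; edgeR adjusted p = 0.778). Together HYAL2 and HYAL3 had 8.42 ± 0.428 FPKM in EZA and 8.46 ± 0.447 FPKM in DMSO. The ratio of these hyaluronidases to the summed synthases was 7.10 ± 0.989 in EZA and 2.19 ± 0.298 in DMSO (SD, n = 3 each), without overlap between libraries, while the hyaluronidase sum alone differed by less than its spread.

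CEMIP and CEMIP2 encode related proteins linked to hyaluronan breakdown at the cell surface. CEMIP2 (ENSG00000135048, chromosome 9, 71683366 to 71816690) had 13.8, 12.5 and 15.8 CPM in EZA replicates 1 to 3 and 15.0, 12.3 and 13.7 CPM in DMSO replicates 1 to 3. The groups overlapped, and the log2 fold change was 0.04 ± 0.16 (SE). CEMIP (ENSG00000103888, chromosome 15, 80779343 to 80951776) had only 15, 13 and 13 counts in EZA and 10, 10 and 16 counts in DMSO. Its log2 fold change was 0.17 ± 0.37 (SE), so a difference of that size was not detectable at this depth. CEMIP shares 224 exon bases with MESD on the other strand, which had 4666 counts.

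CD44, the cell surface receptor for hyaluronan, had the highest mean FPKM of the 9 genes in each group. In EZA its replicate values overlapped with those of UGDH. CD44 (ENSG00000026508, chromosome 11, 35138882 to 35232402) had 172, 168 and 81.8 CPM in EZA replicates 1 to 3 and 200.2, 169 and 192 CPM in DMSO replicates 1 to 3. EZA replicate 1 lay inside the DMSO range, EZA replicate 2 just below it, and EZA replicate 3 was at 0.480 of the mean of EZA replicates 1 and 2. Of all genes tested, 6.09% had a lower ratio of EZA replicate 3 to EZA replicates 1 and 2. The log2 fold change was -0.41 ± 0.25 (SE) with all libraries and -0.13 without EZA replicate 3. Once the GC and length trend was removed as well it was 0.05, so the difference rests on that library, the one with few mitochondrial counts; the part of that library's composition in it was not tested. The counts are summed over all CD44 transcripts, so the standard and variant forms are not separated.

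HMMR, also called RHAMM, binds hyaluronan at the cell surface and acts inside the cell at centrosomes and the mitotic spindle. HMMR (ENSG00000072571, chromosome 5, 163460203 to 163491941) had 21, 31 and 27 counts in EZA replicates 1 to 3 and 37, 28 and 29 counts in DMSO replicates 1 to 3. These were 1.33, 1.71 and 1.91 CPM in EZA and 2.31, 1.79 and 1.85 CPM in DMSO. The groups overlapped, and the log2 fold change was -0.27 ± 0.28 (SE), 0.08 after removal of the GC and length trend. The GC content of its transcript is 36.2%. Its level per length was below that of every partner tested. HMMR had 0.415 ± 0.0732 FPKM in EZA and 0.495 ± 0.0713 FPKM in DMSO (SD, n = 3 each), while its 12 partners ranged from 3.03 to 62.8 FPKM in EZA and from 4.94 to 76.9 FPKM in DMSO. NUDCD2, whose gene starts 101 bases away on the other strand, had 2645 counts in the 6 libraries together.

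**Figure D3:**
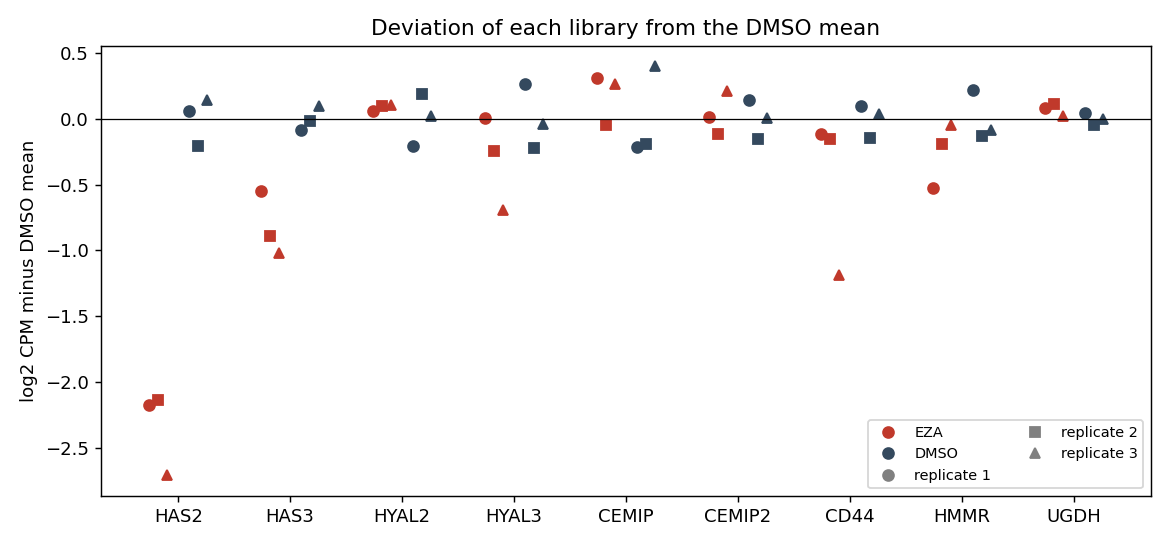
Difference of each library's log2 CPM from the DMSO mean for the 9 genes, with EZA in red left of DMSO in dark blue and a symbol per replicate. HAS2 lies at -2.17, -2.13 and -2.71 in EZA replicates 1 to 3, whereas CD44 lies at -0.11, -0.15 and -1.19.

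By deposited FPKM, CD44 and UGDH led in EZA cells. CD44 had 17.0, 16.9 and 8.02 FPKM in EZA replicates 1 to 3 and overlapped with UGDH at 13.4 ± 0.577 FPKM (SD, n = 3), and HYAL2 followed at 6.48 ± 0.157. HYAL3 and CEMIP2 overlapped at 1.94 ± 0.474 and 1.44 ± 0.152 FPKM. HAS3, HAS2 and HMMR came next, each overlapping with its neighbour in the order, and CEMIP was last at 0.112 ± 0.0153 FPKM. In DMSO cells CD44 was first at 19.6, 16.7 and 18.7 FPKM in replicates 1 to 3, then UGDH at 12.7 ± 0.377 and HYAL2 at 6.08 ± 0.852 (SD, n = 3). HAS2 and HYAL3 overlapped at 2.67 ± 0.313 and 2.38 ± 0.422 FPKM, as did CEMIP2 and HAS3 at 1.39 ± 0.137 and 1.22 ± 0.0741 FPKM. HMMR and CEMIP were last. HAS2 was thus at rank 7 of the 9 in EZA and at rank 4 in DMSO.

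Profiles over the 6 libraries were compared with those of 11250 genes of at least 2 CPM by the root mean square difference of log2 CPM from the DMSO mean. No gene lay close to HAS2. The nearest were MYB, a transcription factor, ZNF519 and CCDC190, at 0.41, 0.48 and 0.56 on the log2 scale. HAS3 had near neighbours, ATF7IP2, PAXIP1 and TTLL5, at 0.06, 0.06 and 0.07. ZNF510, YTHDF2 and STC1 were nearest to CD44, at 0.03, 0.04 and 0.05. For UGDH the nearest was CLCN3 at 0.02, followed by DIS3L and PTTG1IP at 0.03 each. For HYAL2 they were TRIM8, GSK3A and DBN1 at 0.05 each, and for CEMIP2 SLC35F5, TRPM7 and CLCN5 at 0.02, 0.04 and 0.04. HYAL3 had MSX2, MSH3 and HAGLR at 0.07 each, HMMR had STMN1 and IFIT5 at 0.04 and 0.05, and CEMIP had GPLD1, H3C10 and MISP3 at 0.08, 0.11 and 0.11. With 6 libraries such likeness describes these samples and nothing more.

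Of the genes around hyaluronan, 100 in 7 lists outside the 9, 66 were tested. Of these, 21 or 31.8% were called, 11 higher and 10 lower. Over all genes tested 17.7% were called, 9.89% higher and 7.82% lower. All 7 lists were chosen with earlier results of these data known, so nothing is read from the difference between these shares. Without DMSO replicate 1, 2 or 3 the count of called list genes was 2, 7 and 4. Without EZA replicate 1 or 2 it was 13 and 10, and without EZA replicate 3 it was 33. Calls over all genes fell from 2392 to 220, 787 and 254 without DMSO replicate 1, 2 or 3. The calls that list genes lost in these settings, given below, are thus part of a wider loss. The calls of SRSF1 and FAM83D, below, held in all 15 alternatives.

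Genes of the supply and turnover of UDP-sugars were mixed, with 3 of 17 tested genes higher and 2 lower and a median log2 fold change of 0.11. The list holds steps toward UDP-sugars and steps away from them, so these counts do not measure supply. AMDHD2, which returns N-acetylglucosamine 6-phosphate to glucosamine 6-phosphate, rose to 46.9, 51.7 and 72.0 CPM in EZA replicates 1 to 3, against 19.5, 26.7 and 23.8 CPM in DMSO replicates 1 to 3. Its log2 fold change was 1.28 ± 0.20 (SE; edgeR adjusted p = 0.00661), and the call was lost without DMSO replicate 1. UAP1L1, a relative of the enzyme that makes UDP-N-acetylglucosamine, rose by 1.04 ± 0.20 on the log2 scale (edgeR adjusted p = 0.0135), and NAGK, the salvage kinase for N-acetylglucosamine, by 0.62 ± 0.15 (0.0287). PGM2, a phosphoglucomutase, had a log2 fold change of -0.52 ± 0.13 (0.0290). UGP2, which makes the UDP-glucose that UGDH uses and was named after its values were seen, fell to 36.9, 40.6 and 40.6 CPM in EZA, against 64.1, 50.4 and 56.8 CPM in DMSO (edgeR adjusted p = 0.0309); it was not followed through the alternatives. UAP1L1 lost its call without DMSO replicate 1 or 3, NAGK without any 1 DMSO replicate or EZA replicate 2, and PGM2 without any 1 DMSO replicate or EZA replicate 1. NAGK and PGM2 also lost theirs after removal of the GC and length trend, and PGM2 with a block on the replicate number. UAP1L1 also lost its call with that block and the trend removed together.

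Of 4 lysosomal enzymes that break down hyaluronan fragments or, for HPSE, heparan sulfate, 3 were called higher, against 9.89% of all genes tested. The median log2 fold change of the list was 0.50. This list, too, was chosen with earlier results of these data known. HEXA, a subunit of hexosaminidase, and GUSB, beta-glucuronidase, rose by 0.53 ± 0.14 and 0.47 ± 0.14 on the log2 scale (SE; edgeR adjusted p = 0.0317 and 0.0457). Both lost the call without any 1 DMSO replicate and without EZA replicate 1 or 2, and GUSB also with library size scaling or the trend removed. With a block on the replicate number HEXA and GUSB lost it as well. HPSE, heparanase, which cuts heparan sulfate, differed by -0.24 ± 0.14 on the log2 scale (SE; edgeR adjusted p = 0.272).

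CD44 partners, sheddases and splicing factors were mostly not called, with 1 of 16 tested genes higher and 2 lower and a median log2 fold change of 0.08. SRSF1, a splicing factor, fell to 54.3, 65.7 and 50.2 CPM in EZA replicates 1 to 3, against 145, 112 and 124 CPM in DMSO replicates 1 to 3. On the log2 scale this was -1.16 ± 0.15 (SE; edgeR adjusted p = 0.00409). ADAM17, a membrane protease that can shed CD44, rose by 0.59 ± 0.13 on the log2 scale (edgeR adjusted p = 0.0204). MSN, moesin, which ties CD44 to actin, differed by -0.44 ± 0.12 (edgeR adjusted p = 0.0370). PSEN2, a catalytic part of gamma-secretase, had 0.60 ± 0.20 (edgeR adjusted p = 0.0688). ADAM17 lost its call without any 1 DMSO replicate, and MSN without any 1 of the libraries other than EZA replicate 3. MSN also lost its call with no filter on low counts and with a block on the replicate number.

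Of 12 HMMR partners tested at the spindle and centrosome, 6 were called lower, against 7.82% of all genes tested, and none higher. Their median log2 fold change was -0.50. This list, like the others, was chosen with earlier results of these data known. FAM83D, which works with HMMR in placing the spindle, fell to 43.5, 46.6 and 49.8 CPM in EZA replicates 1 to 3, against 83.7, 91.9 and 85.9 CPM in DMSO replicates 1 to 3. Its log2 fold change was -0.90 ± 0.12 (SE; edgeR adjusted p = 0.00413). The mitotic kinases PLK1 and AURKA had log2 fold changes of -1.02 ± 0.16 and -0.91 ± 0.15 (edgeR adjusted p = 0.00710 and 0.00885). BARD1, the partner of BRCA1, had -0.72 ± 0.14 (edgeR adjusted p = 0.0121). PLK1 lost its call without DMSO replicate 1, AURKA without DMSO replicate 1 or 3, and BARD1 in these and after removal of the GC and length trend. The count of lower partners was 1, 4 and 2 without DMSO replicate 1, 2 or 3, 4 without EZA replicate 1 or 2, 8 without EZA replicate 3 and 4 after removal of the GC and length trend. In the last 2 settings and with DESeq2, 1 partner was called higher. CSNK1A1, NUMA1 and NEK9, named after their values were seen, had positive log2 fold changes of 0.36 ± 0.12, 0.22 ± 0.21 and 0.17 ± 0.12 (SE) that missed the threshold. Whether HMMR and its partners differ in their change was not tested.

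Enzymes that build proteoglycan chains and their linker to the protein had 4 of 14 tested genes higher and none lower, with a median log2 fold change of 0.10. Only some of them use UDP-glucuronate. B4GALT7, which adds the first galactose of the linker, and CHPF, a chondroitin polymerising factor, rose by 0.57 ± 0.12 and 0.76 ± 0.19 on the log2 scale (SE; edgeR adjusted p = 0.0194 and 0.0285). CSGALNACT2, which starts chondroitin chains, and B3GAT3, which adds glucuronic acid to the linker, rose by 0.47 ± 0.13 and 0.57 ± 0.16 (edgeR adjusted p = 0.0375 and 0.0402). Each of the 4 lost its call without any 1 DMSO replicate and, other than CHPF, without EZA replicate 2, CSGALNACT2 also without EZA replicate 1. After removal of the GC and length trend B4GALT7, CHPF and B3GAT3 lost theirs. Scaled by library size alone the list had 2 genes higher and 1 lower, and CSGALNACT2 and B3GAT3 lost their calls. The same genes lost them with a block on the replicate number.

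Transcripts of proteins listed as binding hyaluronan, not all of them matrix proteins, had enough counts to be tested in 3 of 19 cases. None was called. At an unadjusted p below 0.05 there was 1. The 3 were HABP4, BCAN (brevican) and C1QBP, with log2 fold changes of 0.44 ± 0.16, 0.29 ± 0.13 and -0.05 ± 0.15 (SE; edgeR adjusted p = 0.0859, 0.160 and 0.831). C1QBP was at a high level per length, 152 ± 26.5 FPKM in EZA and 157 ± 5.15 FPKM in DMSO (SD, n = 3 each). Versican (VCAN), aggrecan (ACAN) and TNFAIP6 had 0 counts in all 6 libraries. None of the 10 other synthases, hyaluronidases and receptors could be tested, and 6 of them, HAS1, HYAL4, SPAM1, LYVE1, LAYN and TLR2, had 0 counts throughout. HYAL1, the lysosomal hyaluronidase, had 3, 4 and 0 counts in EZA and 2, 9 and 6 counts in DMSO.

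**Figure D4:**
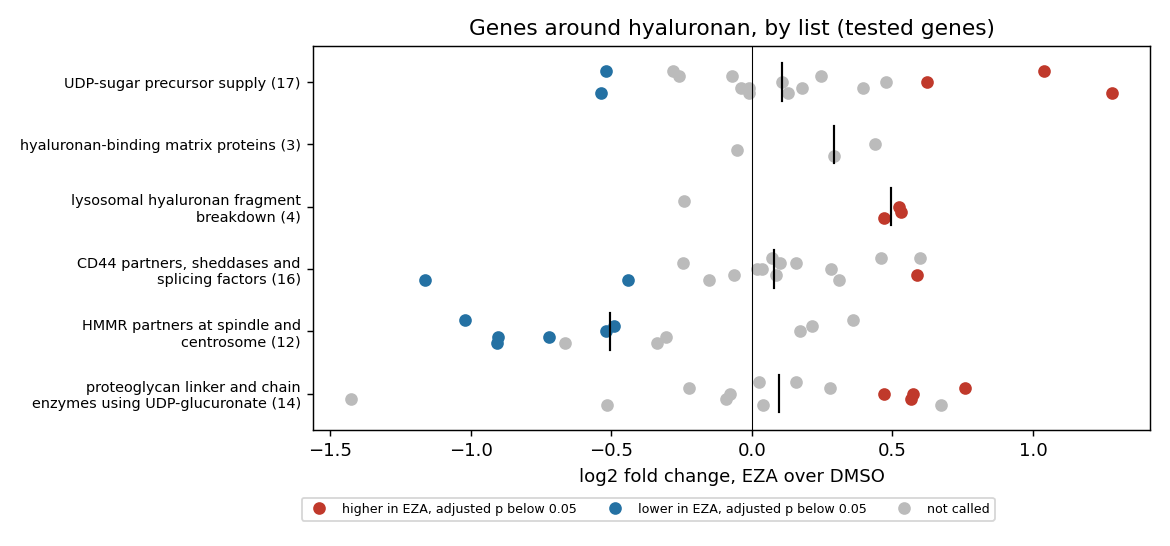
Each point is a tested gene of a list around hyaluronan, placed by its log2 fold change, EZA over DMSO, with called genes in red (higher) or blue (lower), a black line at the list's median and the number tested in parentheses. The HMMR partners centre on -0.50 with 6 called lower, and the lysosomal enzymes on 0.50 with 3 called higher.

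The dependence on processing differed among the 9 genes. The log2 fold change of HAS2 ranged from -2.48 to -1.85 over 15 alternatives and that of HAS3 from -0.98 to -0.73, given as a description. HYAL3 was below 0 in all 15 and CEMIP and UGDH above 0 in all 15, while HYAL2, CEMIP2, CD44 and HMMR changed sign in 4, 3, 1 and 2 of the 15.

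**Figure D5:**
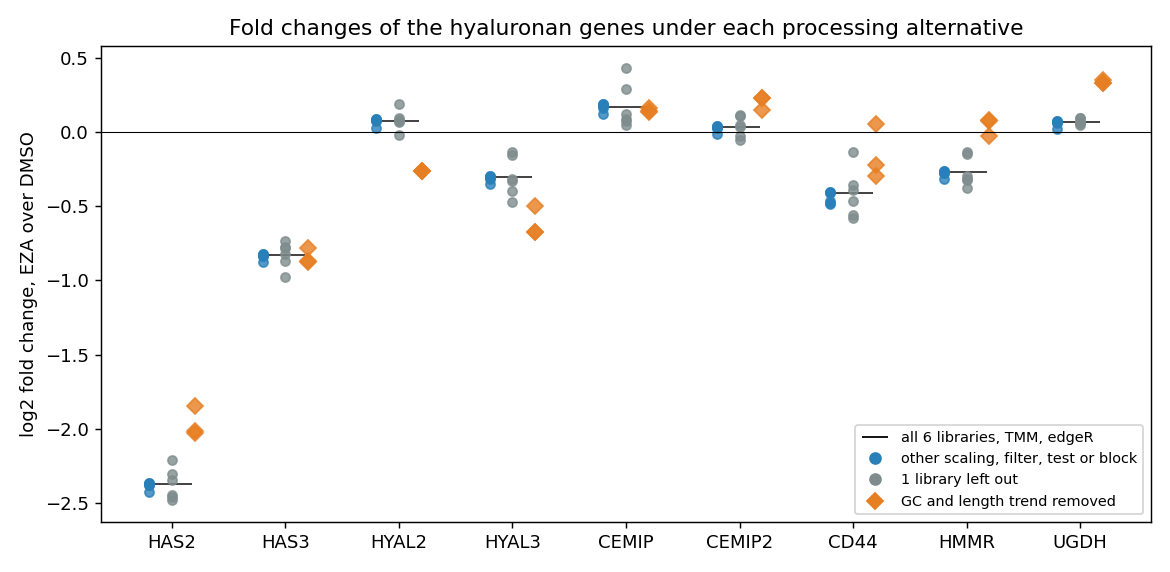
Log2 fold change, EZA over DMSO, of each gene with all libraries (black line), with another scaling, filter, test or block (blue), with 1 library left out (grey) and after removal of the GC and length trend (orange). HAS2 stays between -2.48 and -1.85, and after trend removal HYAL2 moves to -0.26 and UGDH to 0.34.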

How the data were processed

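Poly(A) RNA libraries without strand information were made from 3 EZA and 3 DMSO samples, per the labels' protocols. FastQC, HISAT2, featureCounts, DESeq2 and the build GRCh38 (hg38) were named in the submitters' processing notes. Their versions and the gene annotation were not given in the sources used here. Whole-number counts for each Ensembl identifier were deposited beside FPKM values, so named in the file headers; how the authors computed them is not stated. Counts were used for every test and FPKM for levels between genes.

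Groups and replicate numbers came from sample titles. Symbols, positions, GC content and transcript length came from GENCODE 44 (58207 of 58735 rows matched). A symbol that several identifiers share was kept for the identifier with most counts. No value column was left unassigned. After filterByExpr and TMM scaling, edgeR's quasi-likelihood test (robust, two-sided) was run, with Benjamini-Hochberg adjustment over 13503 genes and a threshold of 0.05. Standard errors were derived from the F statistic. The test was checked on simulated data. Replicates differed by more than counting noise (chi-square per degree of freedom of at least 5.08). Floors cover counting error only.

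The 9 genes, the lists and the rules were chosen with earlier results of these data known. Genes named are the 9, up to 4 genes of each list with the smallest adjusted p and 1 called against the list's majority, the 3 nearest profiles per gene (log2 CPM, prior count 2), genes within 1000 bases of the 9, and markers; others are stated, and some results are not reported here. Alternatives were other scalings, no filter, limma-voom, DESeq2, a block on the replicate number, each library left out, and removal of the GC and length trend (lowess, span 0.3). Software was Python 3.11.15 and R 4.3.3 with DESeq2 1.42.0, limma 3.58.1 and edgeR 4.0.16.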

Additional observations from a re-analysis of the deposited data

How the results depend on the processing

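With no filter on low counts, 1340 genes passed the study's threshold, against 774. With the GC and length trend removed 1538 genes were called, 887 higher and 651 lower, against 2392, 1336 and 1056, and 492 passed the study's threshold. With EZA replicate 3 also left out the calls were 5329, 2787 and 2542, with 4 of the hyaluronan genes called (1 higher, UGDH, and HAS2, HAS3 and HYAL2 lower) and 37 genes of the lists around them. With any 1 library left out, the calls ranged from 220 to 5289, higher calls from 158 to 2640 and lower calls from 62 to 2649. The hyaluronan genes called ranged from 1 to 2, all lower, and the list genes from 2 to 33. The cause of these shifts was not tested.

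Same-numbered EZA and DMSO samples did not deviate together: the correlations of their deviations across genes were 0.03, -0.17 and 0.03 for numbers 1 to 3, and only EZA replicate 1 correlated best with its own number. With the replicate block 1970 genes were called, the same 2 of the hyaluronan genes, and 12 list genes against 21. With the block and the trend removed there were 602 calls (371 higher, 231 lower), 499 past the study's threshold, 1 hyaluronan gene (HAS2, lower) and 10 list genes.

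Of 345 values of 23 list genes followed under the alternatives, 255 kept their direction and side of the threshold, 82 lost the call, 3 gained it and 5 changed sign. The sign changes were BCAN at -0.078 with the trend removed, -0.080 with the block as well and -0.024 without EZA replicate 3 as well, C1QBP at 0.058 without EZA replicate 3 (-0.18 at the other end, without EZA replicate 2), and B3GAT3 at -0.027 with the trend removed and without EZA replicate 3. Neighbours in the order of FPKM overlapped in 6 cases, and in 5 when counts were scaled by TMM and length. Depth limits CEMIP and HMMR most, at 10 to 37 counts a library.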

Other observations

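Several genes tied to hyaluronan or CD44 had too few counts to be tested. SPP1, osteopontin, a secreted ligand of CD44, had 16, 7 and 9 counts in EZA replicates 1 to 3 and 5, 7 and 3 counts in DMSO replicates 1 to 3. RDX, radixin, the relative of moesin and ezrin, had 5 counts in all 6 libraries together, and ESRP1, an epithelial splicing factor that acts on CD44, had 6. HAPLN3, a link protein, had 4, 0 and 9 counts in EZA and 1, 9 and 1 in DMSO. They were picked out after seeing these counts.

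CSGALNACT1, which starts chondroitin chains, was tested and missed the threshold at 0.317, 0.331 and 0.353 CPM in EZA replicates 1 to 3 and 1.25, 0.830 and 0.639 CPM in DMSO replicates 1 to 3. Its log2 fold change was -1.42 ± 0.43 (SE; edgeR adjusted p = 0.0527), opposite in sign to that of its relative CSGALNACT2. It, too, was picked out after its values were seen.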
